A study of Mus musculus with 3 samples.

Results

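The comparison described here set 4T1 cells taken from contact co-culture with MSCs against 4T1 cells kept in regular medium, and covers 2 of the 3 arrays in the series, chosen by their titles. 4T1 is a mouse mammary carcinoma line. In both conditions the base culture was RPMI-1640 with fetal bovine serum. The co-culture cells had spent 1 week in direct contact with MSCs, by which mesenchymal stem or stromal cells are usually meant, and were then separated from the mixed culture. The regular-medium cells met no MSCs, and their culture time is not given in the sources used here, nor are the source of the MSCs, the separation method or the number of cultures behind each RNA sample. The third array holds 4T1 cells grown for 1 week with medium conditioned by MSCs, and its signals are given beside the others for each gene. Total RNA was hybridised to Affymetrix whole-genome mouse expression arrays, 1 array a condition. There are therefore no replicates, no errors between cultures and no tests, and every difference below compares 1 array with 1 array. Contact, separation and any difference in culture time cannot be told apart.

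Mesenchymal stromal cells signal to neighbouring tumour cells through soluble factors, through ligands fixed on their surface and through the matrix they lay down. A cell that receives such signals can alter the receptors that detect them, the transcription factors that carry them to the genome, the transporters that set what enters and leaves the cell, and the proteins it secretes in return. Interferons, which many stromal and immune cells make, act through STAT and IRF factors on genes that carry an interferon-stimulated response element, while stress of the endoplasmic reticulum or shortage of amino acids acts largely through factors of the basic leucine zipper (bZIP) family.

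Signals are in MAS5 units on a linear scale, and 3 signals in a row are given in the order regular medium, conditioned medium, co-culture. A gene counts as higher or lower in co-culture when the ratio of its co-culture and regular-medium signals was 2-fold or more and the larger of them reached 149.3, the 60th percentile of all probe sets on the 3 arrays. Signals under 42.4, the 40th percentile, were raised to it before a fold was taken, so a fold from such a signal is a lower bound. Of 18193 genes, 9393 reached 149.3 on at least 1 of both arrays and are called measured. By this rule 546 genes, 5.81% of those measured, were higher in co-culture and 259, 2.76%, were lower. In 394 of the 546 the regular-medium signal was itself at or above 149.3. The median log2 difference of the measured genes was 0.07. The rule is met more often by dim genes: where the geometric mean of both signals was under 300, 181 of 1641 genes were higher, and where it was 1000 or more, 154 of 4387 were. Median signals of the arrays were 79.8, 71.6 and 72.5. Where a called higher gene had other bright probe sets, 318 of 359 such probe sets differed in the same direction, and for lower genes 148 of 152 did. Fewer reached 2-fold in that direction, 161 of the 359 and 82 of the 152.

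Epithelial markers were read first, as a check of the label. Of 28 listed epithelial genes on the array, 25 were bright in co-culture, among them Epcam, an epithelial adhesion molecule, at 5196, 5009 and 5542, and the keratin Krt8 at 15049, 15956 and 16476. The MSC and fibroblast markers gave the other reading that bears on a mixed culture. Of 27 on the array, 12 were measured, 2 were higher in co-culture and 0 lower, and 7 lay under 42.4 in co-culture. Bright markers numbered 9 in regular medium and 11 in co-culture. The measured markers had a median log2 difference of 0.49, against 0.07 for all measured genes, and 9 lay above regular medium and 3 below it. The summed signals of the list were 50068, 51939 and 42362. Vim, the filament protein vimentin and the brightest marker, gave 27902, 29070.4 and 16658 of these. Without Vim the sums were 22166, 22868 and 25704, so the list was lower in co-culture with Vim and higher without it. Most markers under 42.4 in regular medium read higher in co-culture, and most of them also read higher in conditioned medium. The same share over all genes under 42.4 in regular medium was not taken. The collagen genes Col1a1 and Col5a2 gave 13, 4.4 and 41.9 for Col1a1 and 2.2, 32 and 89.8 for Col5a2. The matrix proteoglycan genes Lum and Dcn gave 16.6, 21.8 and 43.8 for Lum and 8.8, 25.2 and 35.2 for Dcn. Mgp gave 7.6, 34 and 38.9, and Bgn, Pdgfrb, Fstl1 and Cxcl12 also read higher. Thy1 and Prrx1 read lower, at 31.1, 10.8 and 6.7 for Thy1 and 23.5, 11.1 and 20.5 for Prrx1. Markers that read higher in co-culture without meeting the rule included the collagen gene Col1a2 at 101.8, 100.1 and 188.2, the receptor gene Pdgfra at 101.3, 158.9 and 187.5, and the surface proteins Eng at 937.8, 957.2 and 1476 and Nt5e at 2157, 2186 and 3186. Both higher markers were genes of matrix proteins, Bgn and Postn. Of 10 smooth muscle and pericyte markers, 3 were measured, 1 was higher and 1 lower. Acta2, the higher one, gave 42.4, 157 and 278.3, and Cspg4, the lower one, gave 188.9, 27.8 and 36. Leukocyte markers (14 listed) and endothelial markers (10 listed) held no called gene, and the pan-leukocyte gene Ptprc read 1.6, 0.5 and 17.6. In a bulk sample, a change in the share of a cell type and a change per cell cannot be told apart.

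**Figure D1:**
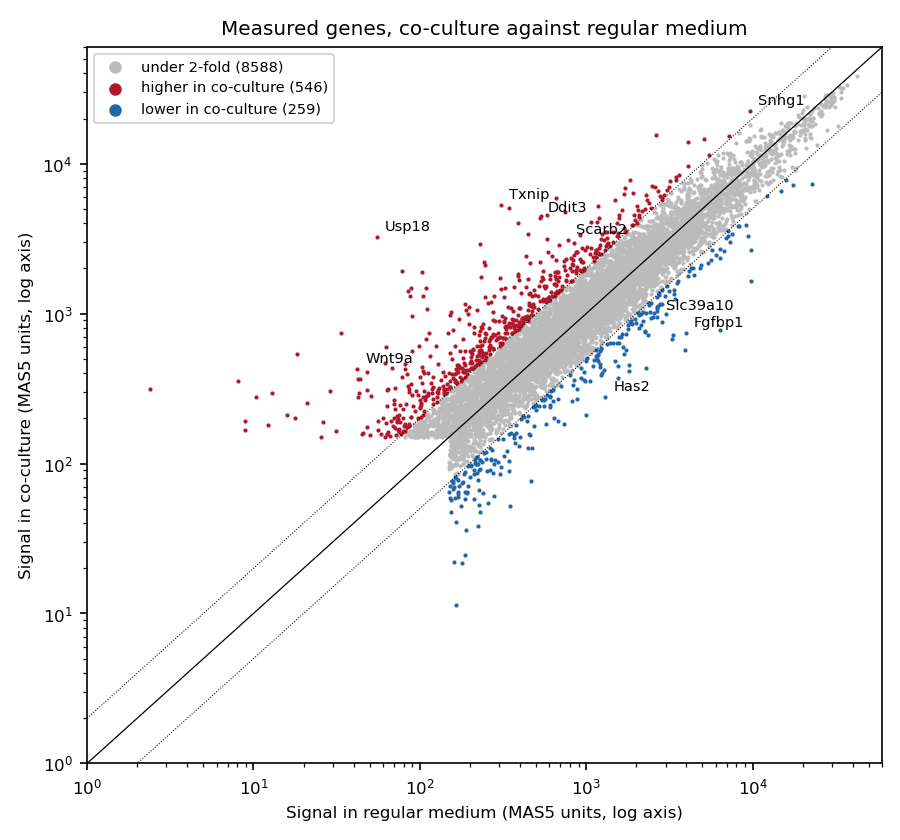
Signal in co-culture (vertical, log axis) against signal in regular medium (horizontal, log axis) for the 9393 measured genes, 1 point a gene, 1 array an axis. The solid line marks equal signals and the dotted lines a 2-fold difference; 546 genes lie above in red and 259 below in blue, with a wider spread among dim genes.

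Irgm2, Ifit1 and Lgals9, which are known as interferon-induced, were among the higher genes, and their promoters are shown first because 1 sequence element was searched in them. The element searched was the interferon-stimulated response element (ISRE), taken as TTTC, any 2 bases and TTTC on either strand. It was found for 10.3% of 437 higher genes, 2.90% of 207 lower genes and 3.48% of 7711 measured genes with a RefSeq promoter. A gene with several promoters counted once, if any of them held the element. Over all 32851 promoters of the same length, counted singly, the share was 3.44%. Each promoter covers 250 bases before the annotated gene start and 50 after it, read from RefSeq on the build GRCm38.p6. Capitals mark the ISRE match in Irgm2 (chr11:58214727-58215026, plus strand), Ifit1 (chr19:34640639-34640938, plus strand) and Lgals9 (chr11:78984875-78985174, minus strand). In Atf3 (chr1:191183284-191183583, minus strand) they mark the other element shown, a C/EBP-ATF response element (CARE), searched as TGATGNAA on either strand.
Irgm2: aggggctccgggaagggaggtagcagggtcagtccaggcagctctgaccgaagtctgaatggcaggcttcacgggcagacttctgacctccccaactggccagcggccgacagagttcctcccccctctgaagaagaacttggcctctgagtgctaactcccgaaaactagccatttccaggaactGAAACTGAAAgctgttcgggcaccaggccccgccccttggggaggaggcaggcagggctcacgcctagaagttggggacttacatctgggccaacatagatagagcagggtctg
Ifit1: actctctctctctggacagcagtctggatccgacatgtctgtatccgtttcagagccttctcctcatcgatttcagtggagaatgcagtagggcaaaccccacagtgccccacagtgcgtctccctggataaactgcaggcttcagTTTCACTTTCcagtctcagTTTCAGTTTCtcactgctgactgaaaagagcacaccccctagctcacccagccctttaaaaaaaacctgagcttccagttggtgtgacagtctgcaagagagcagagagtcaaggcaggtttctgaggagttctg
Lgals9: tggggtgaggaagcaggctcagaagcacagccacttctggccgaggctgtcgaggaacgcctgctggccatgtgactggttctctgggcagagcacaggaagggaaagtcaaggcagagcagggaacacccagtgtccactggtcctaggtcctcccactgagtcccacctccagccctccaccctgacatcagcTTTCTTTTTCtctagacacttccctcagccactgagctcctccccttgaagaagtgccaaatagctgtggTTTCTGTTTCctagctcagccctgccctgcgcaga
Atf3: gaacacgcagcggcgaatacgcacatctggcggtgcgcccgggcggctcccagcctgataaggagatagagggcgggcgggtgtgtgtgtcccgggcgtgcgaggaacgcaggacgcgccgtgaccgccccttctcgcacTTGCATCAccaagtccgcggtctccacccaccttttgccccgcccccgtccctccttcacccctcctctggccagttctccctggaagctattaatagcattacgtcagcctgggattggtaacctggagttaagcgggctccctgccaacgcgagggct
The Irgm2 match begins 64 bases before the gene start, on the other strand as printed. Ifit1 holds a pair of matches, beginning 104 and 85 bases before the start. Lgals9 holds one 55 bases before the start and one 15 bases after it, and the single Atf3 match begins 110 bases before the start. Lgals9 and Atf3 were picked for display after their values were seen. The promoters of Idi1 and Phf11d, which also hold a CARE match, are not printed. A match of these letters is a description of the sequence and no record of a factor bound there.

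Irgm2, an immunity-related GTPase, gave signals of 77.6, 74.8 and 1912, a 24.6-fold difference, and Ifit1, which binds viral RNA, gave 84.6, 85.7 and 1423. Lgals9, the secreted lectin galectin-9, gave 389.3, 393.5 and 1771 and was 4.55-fold higher. In all of these the conditioned-medium signal lay by the regular-medium one. For the other elements, shares are given for higher, lower and measured genes, counted by gene in the same way. CARE was found for 4.81% of higher, 1.45% of lower and 2.53% of measured genes, and the cell cycle homology element (CHR, TTTGAA) for 13.3%, 22.7% and 13.8%. The interferon-gamma activated site (GAS, TTCNNNGAA) was in 8.92%, 9.18% and 7.98%, and the sterol regulatory element (SRE, TCACNCCAC) in 0.686%, 0.966% and 1.35%. The E-box CACGTG stood at 13.7%, 10.1% and 12.5%, and the cyclic AMP response element (CRE, TGACGTCA) at 4.35%, 4.83% and 3.89%. A loose NF-kB pattern (GGG, any 5 bases, CC) was in 73.2%, 65.7% and 73.6% and tells little at such frequency. Shares over all promoters, counted singly, were 3.97%, 17.9%, 8.30%, 1.24%, 7.15%, 1.79% and 50.8% for these elements in the same order. The patterns overlap in places, since CARE and CRE share their opening TGA and 1 promoter may hold several elements.

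Counted by class, secreted proteins, receptors and transcription factors held larger shares of higher genes than the 5.81% of all measured genes, and transporters a share near it. Among transcription factors, 60 of 595 measured genes were higher (10.1%) and 9 lower (1.51%). Receptors had 24 of 189 higher (12.7%) and 7 lower (3.70%). For secreted proteins and membrane ligands the counts were 39 of 265 higher (14.7%) and 15 lower (5.66%). Transporters and channels had 19 of 267 higher (7.12%) and 5 lower (1.87%). Median log2 differences were 0.28, 0.33, 0.28 and 0.17 in that order, against 0.07 for all measured genes. These classes hold many dim genes, so the brightest ones were counted alone. With a geometric mean signal of 1000 or more, 21 of 180 transcription factors, 6 of 56 receptors, 12 of 108 secreted proteins and 6 of 99 transporters were higher, that is 11.7%, 10.7%, 11.1% and 6.06%, against 3.51% of all genes that bright. No listed transcription factor or receptor in that bright range was lower. The lists are not complete. Tfrc, the transferrin receptor gene, is outside the receptor list and was lower, at a log2 difference of -1.23. Its other bright probe sets gave -4.34 and -3.08, and it was picked after its values were seen. The array carried 1116 listed transcription factors, 736 receptors, 1055 secreted proteins and 780 transporters, and those not measured have no call. A gene whose larger signal lies under 703.6, the 80th percentile, has no call under the strictest signal rule tried.

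**Figure D2:**
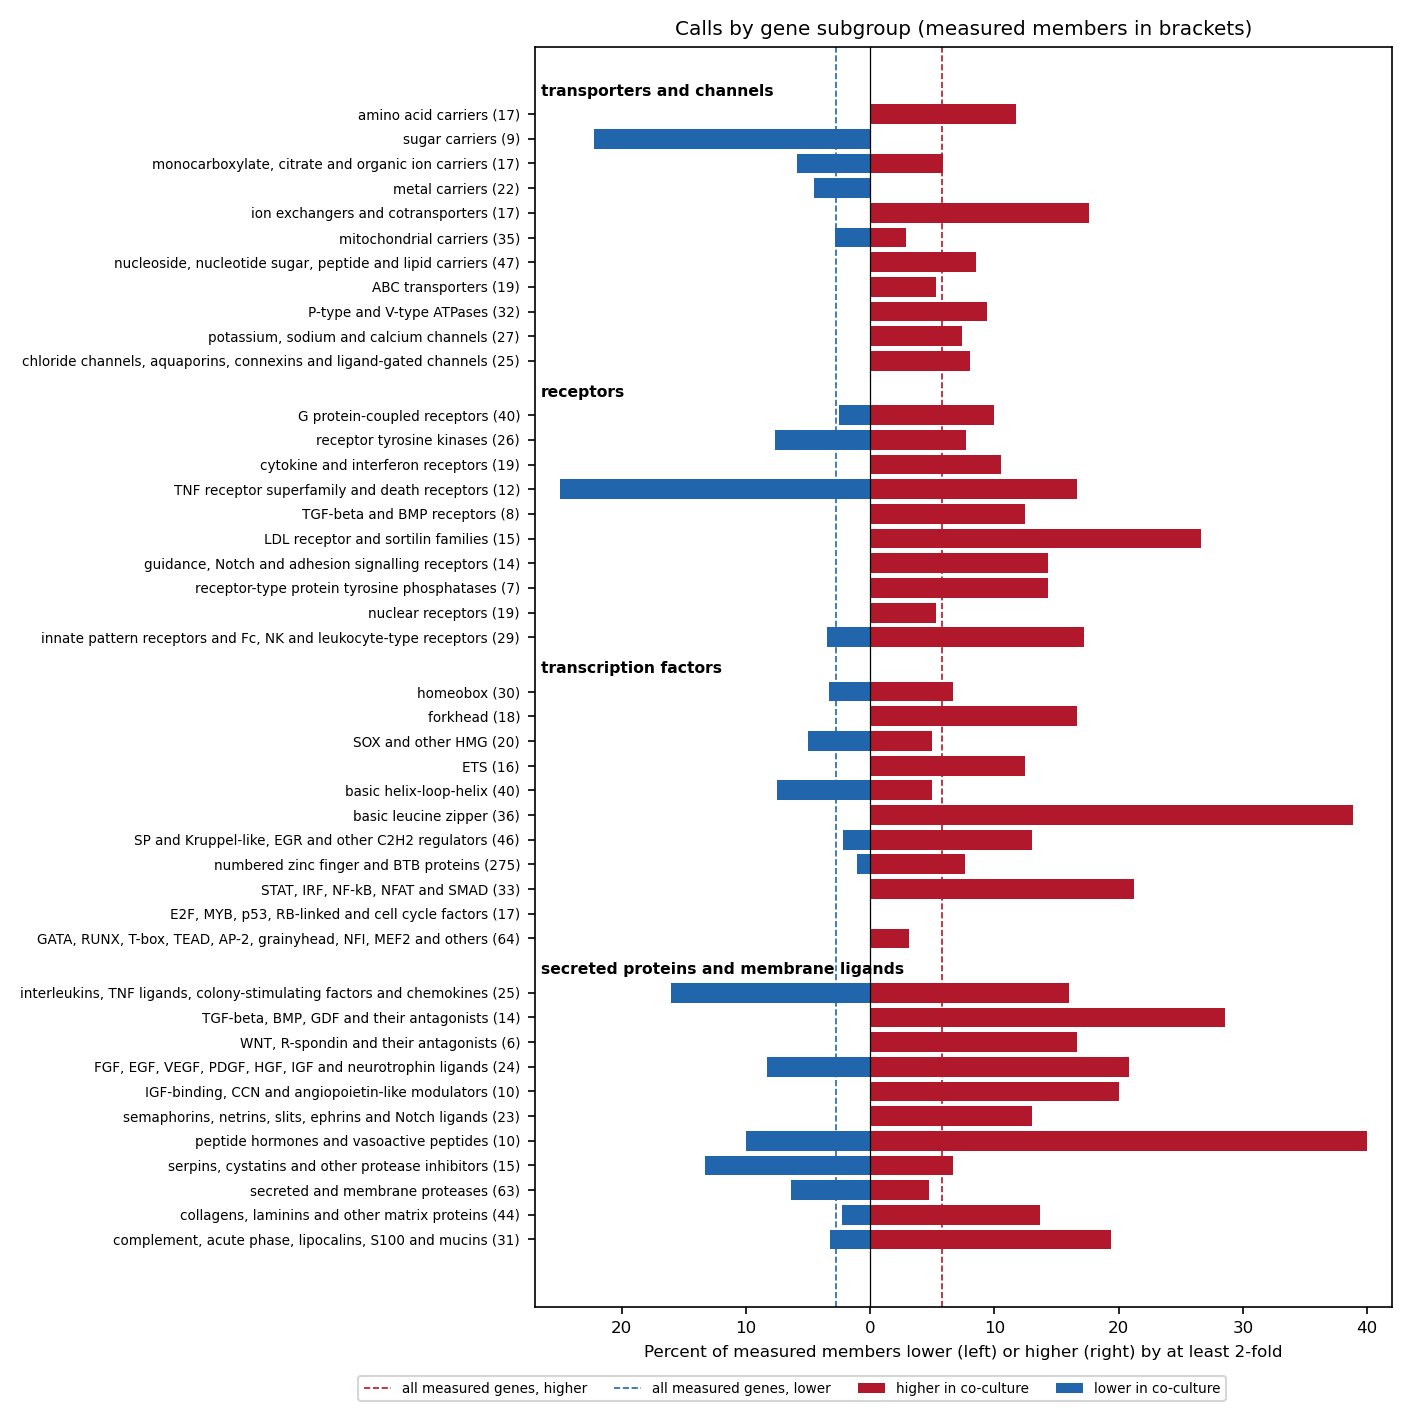
Percent of measured members that were at least 2-fold higher (red, right) or lower (blue, left) in co-culture, for the 43 subgroups of the 4 classes, with the number of measured members in brackets. Dashed lines mark the shares over all measured genes, 5.81% higher and 2.76% lower; bZIP factors, with 36 measured, reach 38.9%, and several of the smallest subgroups rest on under 10 genes.

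Of the transcription factor families, bZIP genes had the highest share of higher members. Of 52 on the array, 36 were measured and 14 of those were higher (38.9%), none was lower, and 13 of the 14 were already bright in regular medium. Ddit3, also called CHOP, an effector of endoplasmic reticulum stress, gave 524.6, 551.4 and 4315 and was 8.23-fold higher. Its other bright probe set gave a log2 difference of 1.17, and the median of the bright probe sets was 4.30-fold. Atf3, a stress-induced partner of AP-1, gave 686.4, 657.6 and 2888 and was 4.21-fold higher. Both were flat between regular and conditioned medium. Atf6, a factor that is anchored in the endoplasmic reticulum until stress releases it, gave 609.1, 716.2 and 1808, and Xbp1, whose mRNA is spliced during such stress, gave 3459.7, 3433 and 8182. Nfe2l1, which is also held in that membrane and drives proteasome genes, gave 1891, 1846 and 3924, and the related membrane factor Creb3l2 gave 152.8, 134.5 and 326, though the median of its bright probe sets did not reach 2-fold. Atf5 gave 472.8, 376.9 and 1320.3. The array does not read splicing of Xbp1 or release of Atf6 and Nfe2l1 from the membrane.

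Other C/EBP and AP-1 members made up most of the remaining bZIP genes. Cebpb, which acts in the mammary gland and in acute inflammation, gave 2597, 2618 and 6939 and was 2.67-fold higher, and Cebpd, its acute-phase relative, gave 150.7, 132.8 and 400.3. Fos, an immediate-early AP-1 subunit, was 4.25-fold higher at 103.5, 120.0 and 440.2, and Fosl2 gave 1217, 1287 and 2866. For Fosl2 the other bright probe set gave a log2 difference of 0.24 and the median of the bright ones was 1.67-fold. The AP-1 subunits Jun, Junb and Fosl1 did not meet the rule, with log2 differences of 0.32, 0.34 and -0.25. Nfil3, a repressor in the circadian and immune systems, gave 875.6, 827.7 and 2049.6, the small Maf protein gene Mafk gave 392.5, 295.5 and 875.7 and Creb5 gave 296.7, 223.8 and 687.5. Atf4, whose protein level is set largely by translation and which lies upstream of Ddit3 and Atf3 in the stress response, gave 8087, 7859.7 and 7792, a log2 difference of -0.05. Its near-equal signals set it apart from the higher members. The bZIP genes beyond Ddit3, Fos, Atf3 and Atf6 are listed to complete the family and were chosen after their values were seen.

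**Figure D3:**
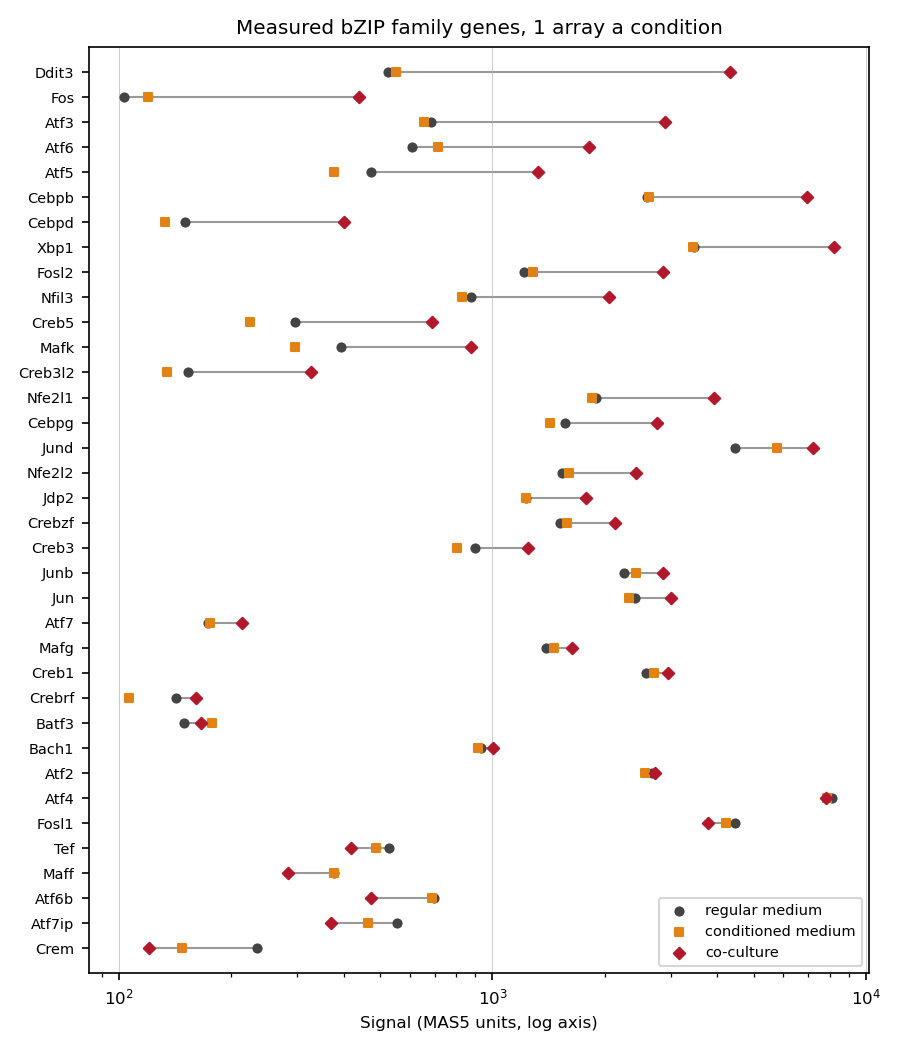
Signals of the 36 measured bZIP genes (log axis) on the regular-medium, conditioned-medium and co-culture arrays, 1 array each, sorted by the difference between co-culture and regular medium. Grey lines join regular medium and co-culture; Ddit3, at the top, runs from 524.6 to 4315, while Atf4 and the genes next to it keep almost the same signal on the 3 arrays.

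Genes known as partners or products of this stress pathway were read beside it. Trib3, a pseudokinase induced by Ddit3 and Atf4, gave 1067, 1168 and 4069 and was 3.81-fold higher, and its promoter holds a CARE match like that of Atf3. Ppp1r15a, or GADD34, which brings a phosphatase to the initiation factor eIF2, gave 434, 430.6 and 2414 and was 5.56-fold higher. Eif2ak2, the interferon-induced kinase PKR that phosphorylates that same factor, gave 309.7, 368.8 and 1449. Other genes known in the pathway, picked after their values were seen, were uneven. Asns, the asparagine synthetase, gave 7782, 8376 and 10793, Chac1, which breaks down glutathione, gave 2041, 2275 and 2762, and Sesn2 gave 222.3, 245.6 and 389, and none of these met the rule. The chaperone genes Hspa5 and Hsp90b1 gave log2 differences of 0.46 and 0.05, and Eif2ak3, the kinase PERK, gave 0.50. Dnajb9, a co-chaperone of the same compartment, gave 0.64. Nupr1, a stress-induced chromatin protein, was 4.05-fold higher at 1701, 1699.9 and 6891. Its promoter also holds a CARE match, as does that of Idi1, a sterol synthesis gene that was 8.23-fold lower. No CARE match was found for Ddit3 or Ppp1r15a. The differences of Ddit3, Atf3, Trib3, Ppp1r15a and Nupr1 were thus larger than those of the chaperones and of Asns named here. Other genes known in these stress responses did meet the rule. Gpt2, Selenos and Pck2, also picked after their values were seen, were higher. The medians of their bright probe sets were 2.94-fold, 2.76-fold and 2.14-fold. The genes named are not the whole pathway, and its targets were not counted as a set.

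Interferon-linked factors came next, with 7 of 33 measured STAT, IRF, NF-kB, NFAT and SMAD genes higher and 0 lower. Irf7, which amplifies the interferon response, gave 111.2, 63.6 and 1080.4 and was 9.72-fold higher, Irf9, the DNA-binding part of the interferon complex ISGF3, gave 153.9, 136 and 1022, and Irf1 gave 1541, 1536 and 3993. The NF-kB subunit gene Relb gave 350.0, 370.6 and 814.7. Both IRF2-binding proteins in the list, Irf2bp2 and Irf2bpl, also met the rule at 1934, 2300.1 and 4571 for Irf2bp2 and 930.7, 1052 and 2232 for Irf2bpl; they are co-regulators and not IRF factors. The last of the group, Nfatc2, was dim throughout, at 50.2, 108.7 and 155.4, and its conditioned-medium signal lay between the others.

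Kruppel-like and related zinc finger regulators had 6 of 46 higher and 1 lower. Klf10, an early target of TGF-beta, gave 1195, 1259.5 and 4348 and was 3.64-fold higher, Klf6 gave 2007, 2413 and 5242 and Klf9, which responds to glucocorticoids, gave 1336, 1536 and 3477. Klf4 and Klf5, which act in epithelial cell fate, gave 343.7, 316.2 and 870.3 for Klf4 and 2021, 1802 and 4048 for Klf5, whose other bright probe set gave a log2 difference of 0.31 and brought the median to 1.58-fold. Zbtb18, a repressor from the BTB group, gave 1679, 1788 and 6229, a 3.71-fold difference, and its promoter holds an ISRE match. It led the 275 measured numbered zinc finger and BTB genes, of which 21 were higher (7.64%) and 3 lower, a share near that of all genes. Tsc22d3, a glucocorticoid-induced leucine zipper protein, gave 340.6, 260.3 and 1111, and Mrtfa, a co-activator of serum response factor, gave 515, 576 and 1314. For Tsc22d3 the median of its bright probe sets did not reach 2-fold.

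None of 17 measured E2F, MYB, p53 and RB-linked factors met the rule, and 12 of them lay below regular medium, with a median log2 difference of -0.24. Of 40 basic helix-loop-helix genes, 2 were higher and 3 lower, with a median log2 difference of 0.28, 24 above regular medium and 16 below. Mlx, the partner of the glucose-sensing factors ChREBP and MondoA, gave 836, 870.1 and 331.7 and was 2.52-fold lower. Its other bright probe set gave a log2 difference of -0.15, and the median of the bright ones was 1.67-fold, which did not reach 2-fold. Mxd3, a Max partner tied to proliferation, gave 392.9, 337.8 and 129.9, and Id1, an inhibitor of helix-loop-helix factors that BMPs induce, gave 794.1, 1029.5 and 386.5. Ncoa1, a co-activator of nuclear receptors, was higher at 261.3, 286.5 and 798.2. Txnip and Arrdc4, a pair of arrestin-family genes that Mlx complexes are known to drive, were higher at 305.7, 301.4 and 5288 for Txnip and 108.6, 84 and 1478 for Arrdc4. By the probe set used for Mlx, it and this pair differed in opposite directions, while its other bright probe set was nearly flat. A link between them was not tested. Forkhead genes had 3 of 18 higher, all from modest signals. Foxo3, a factor held out of the nucleus by insulin signalling, gave 465.7, 337.4 and 975.4, and other bright probe sets of the gene kept its median under 2-fold.

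Transporters and channels gave 19 higher and 5 lower genes, and 12 of the higher ones were bright in regular medium. Subunits of the V-type ATPase, the proton pump that acidifies lysosomes, were among the brightest. Atp6v0b and Atp6v0d1, of its membrane sector, gave 2179, 1998 and 4825 for Atp6v0b and 1072, 1067 and 2724 for Atp6v0d1, 2.21-fold and 2.54-fold higher, and the dim Atp6v0e2 gave 66.9, 125.6 and 192.8. These were the 3 higher genes of 32 measured P-type and V-type ATPases. Of 14 measured V-type ATPase subunits the others did not meet the rule, and the 14 ranged from -0.54 in Atp6v1e1 to 1.53 in Atp6v0e2, with a median log2 difference of 0.34. Atp6v1a and Atp6v1f gave log2 differences of 0.04 and -0.01, and Atp6v1g1 stopped just short at 0.99. Scarb2, the lysosomal membrane receptor that delivers glucocerebrosidase, gave 777.8, 887 and 3108 and was 4.00-fold higher. Grn, or progranulin, a secreted protein that reaches lysosomes, gave 3610.0, 3432 and 8384. Grina, a membrane protein of the Bax inhibitor family, gave 682.9, 669.6 and 1757. Tfe3 and Tfeb, known regulators of lysosomal genes picked after their values were seen, had log2 differences of 0.64 and 0.75.

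Among solute carriers, Slc4a11, a membrane carrier of the bicarbonate transporter family, gave 939.1, 1063 and 2745 and was 2.92-fold higher, and its relative Slc4a4, a sodium bicarbonate cotransporter, gave 206.7, 155 and 466.8. Slc24a3, a sodium, potassium and calcium exchanger, gave 105.6, 42.6 and 398.8. They were the 3 higher genes of 17 measured ion exchangers. Slc6a9, the glycine transporter GLYT1, gave 455.7, 478.1 and 1133 and was 2.49-fold higher. Of the 47 nucleotide sugar, peptide and lipid carriers, 4 were higher, among them Mfsd6 at 990.4, 1414 and 2636, where conditioned medium lay part of the way to co-culture. Calcium release and lipid transport each added a gene. Itpr2, a receptor for inositol trisphosphate on the endoplasmic reticulum, was 4.93-fold higher at 64, 73.6 and 315.3, and Abca3, a lipid pump, gave 574, 734.7 and 1188, with other bright probe sets keeping its median under 2-fold. ABC transporters as a group lay lower: 14 of 19 were below regular medium, and their median log2 difference was -0.21, although none was 2-fold lower.

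The lower transporters were few. Slc39a10, a zinc importer and the only one of them above 1000, gave 2672, 2745 and 952.9 and was 2.80-fold lower; it was the single called gene of 22 metal carriers, whose median log2 difference was 0.20. Slc18a2, the vesicular monoamine transporter, gave 226.6, 238.7 and 53.1. Both lower genes of 9 sugar carriers were weak in signal, Slc2a8 (GLUT8) at 187.3, 178.6 and 87.7 and Slc45a1 at 229.1, 178.2 and 92.6. Slc25a27, a mitochondrial uncoupling protein, gave 351, 237.4 and 160.3, while Slc25a36, the mitochondrial pyrimidine nucleotide carrier, was higher at 825.1, 841.6 and 1915; a second bright probe set of Slc25a36 gave a log2 difference of 0.05. Mitochondrial carriers as a whole centred on -0.01, with 1 of 35 higher and 1 lower.

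**Figure D4:**
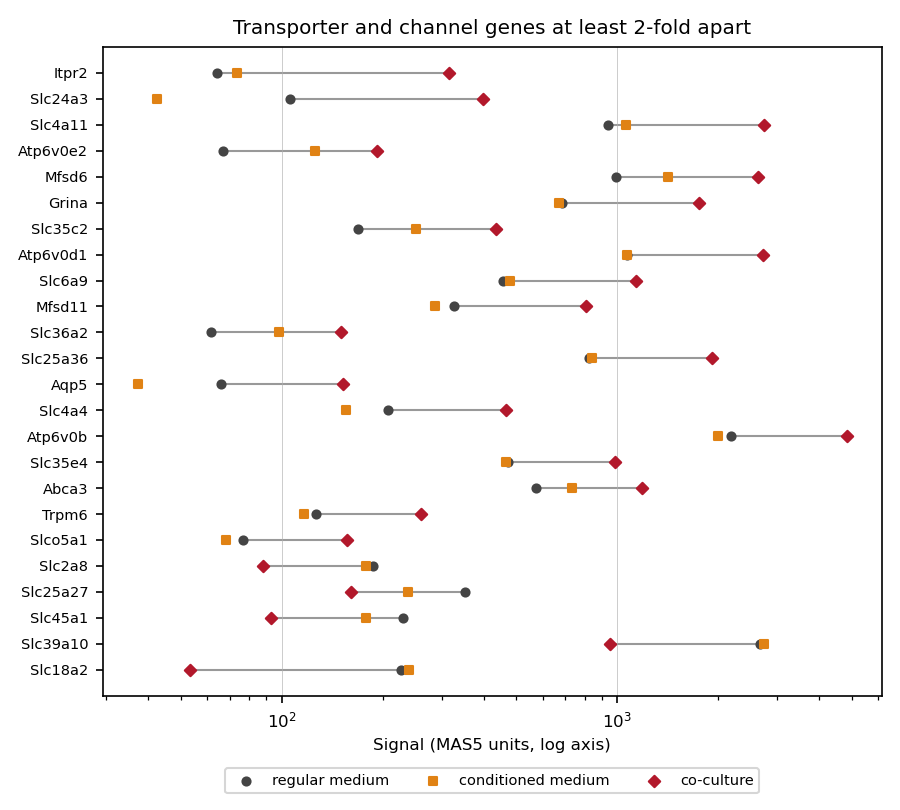
Signals (log axis) of the 24 transporter and channel genes at least 2-fold apart, on the regular-medium, conditioned-medium and co-culture arrays, 1 array each. Grey lines join regular medium and co-culture; 19 genes lie higher in co-culture and 5, at the bottom, lower, Slc39a10 being the brightest of these at 2672 in regular medium.

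Listed receptors gave 24 higher and 7 lower genes. LDL receptors and sortilins take up lipoproteins and sort proteins to lysosomes. Their list, which also counts scavenger receptors such as Scarb1 and Scarb2, had 4 of 15 higher and 0 lower. Vldlr, a receptor for lipoproteins and reelin, gave 152.4, 159.7 and 548.2 and was 3.60-fold higher, and Lrp1, a large scavenging receptor, and Sorcs2, a sortilin relative, gave 304.2, 335.7 and 699.9 for Lrp1 and 163.6, 138.9 and 393.8 for Sorcs2. Scarb2, described above, was the remaining higher gene of the list. Ly6e, a surface protein induced by interferon, gave 447.8, 436.3 and 3373 and was 7.53-fold higher. It led the 5 higher of 29 innate and leukocyte-type receptor genes, with Tlr3, the sensor of double-stranded RNA, at 594.9, 485.2 and 1293 and Cd74, the invariant chain of MHC class II, at 251.1, 302.8 and 728.5. Cd274, the ligand PD-L1, met the rule from a dim signal at 81.2, 56.4 and 164.8 and was picked after its values were seen.

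The TNF receptor superfamily divided by member. Fas, the death receptor for Fas ligand, gave 43.7, 43 and 365.3 and was 8.36-fold higher, and Tnfrsf1b, the second TNF receptor, gave 251.3, 247.7 and 515.1. Receptors of the ligand TRAIL lay lower. Tnfrsf23 and Tnfrsf22, which bind TRAIL without a death domain, gave 257.8, 262.5 and 54.6 for Tnfrsf23 and 469.7, 469.2 and 127.7 for Tnfrsf22, 4.72-fold and 3.68-fold lower, and Tnfrsf10b, the mouse death receptor for TRAIL, gave 222.8, 221.1 and 98.6. These were the 2 higher and 3 lower genes of 12 measured. A second bright probe set of Tnfrsf1b gave a log2 difference of -0.17, and Tnfrsf10b missed the rule when probe sets marked for possible cross-hybridisation were left out. The ligand genes were dim in all conditions, with Fasl at 5.8, 41.9 and 3.5 and Tnfsf10, the TRAIL gene, at 26.3, 22.4 and 19.6.

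Of the receptors for the IL-6 family, 1 chain was higher without a contrary reading and 1 with one. Osmr, the oncostatin M receptor, gave 112.1, 95.3 and 400.3 and was 3.57-fold higher. Il6st, or gp130, the chain all receptors of this family share, gave 1178, 1274 and 2518, but another bright probe set of Il6st differed the other way, at a log2 difference of -1.38. Of their ligands, picked after their values were seen, Lif gave 1197, 1256 and 2028, Osm gave 14, 21.7 and 40.4 and Il6 gave 1.7, 1.8 and 2.6, and only Lif was bright. In the WNT system Fzd4, a Frizzled receptor, gave 208.6, 227.8 and 583.5, and Lgr6, an R-spondin receptor, gave 186.2, 175.8 and 561. A second bright probe set of Lgr6 gave 0.21. The ligand Wnt9a was at least 10.0-fold higher at 41.9, 90.5 and 424, from a regular-medium signal below the floor, and the WNT target and factor gene Lef1 gave 56.4, 46 and 193. All of these WNT genes were dim or middling in signal.

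Receptor kinases were split, 2 higher and 2 lower of 26. Ddr2, a collagen receptor kinase, gave 1444, 1601 and 3478 and was 2.41-fold higher, whereas Ntrk2, the receptor TrkB, gave 179, 64.7 and 21.6 and was at least 4.22-fold lower, with conditioned medium between. Epha4 was lower at 213, 193.7 and 85.4 and Ephb3, from the same ephrin receptor family, just met the rule at 102.1, 106.8 and 204.6. The ephrin gene Efnb2 gave 2262, 2719 and 4973; another bright probe set of it went the other way, at -0.79. Guidance receptors were higher in 2 of 14. Neo1 (neogenin), a netrin receptor, gave 846.2, 890.0 and 2472 and Nrp2 (neuropilin-2), a receptor of semaphorins and VEGF-C, gave 2789.7, 2916 and 6102, although the median of bright probe sets stayed under 2-fold for both. Ntn1, the netrin ligand of Neo1, gave 334.7, 440.7 and 740.9. G protein-coupled receptors had 4 of 40 higher, and 289 were on the array. Gpr146 gave 104.1, 76.9 and 412.4. Bdkrb2, the bradykinin receptor, gave 318.2, 325.8 and 689.6, and another bright probe set of it gave a log2 difference of -1.74.

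**Figure D5:**
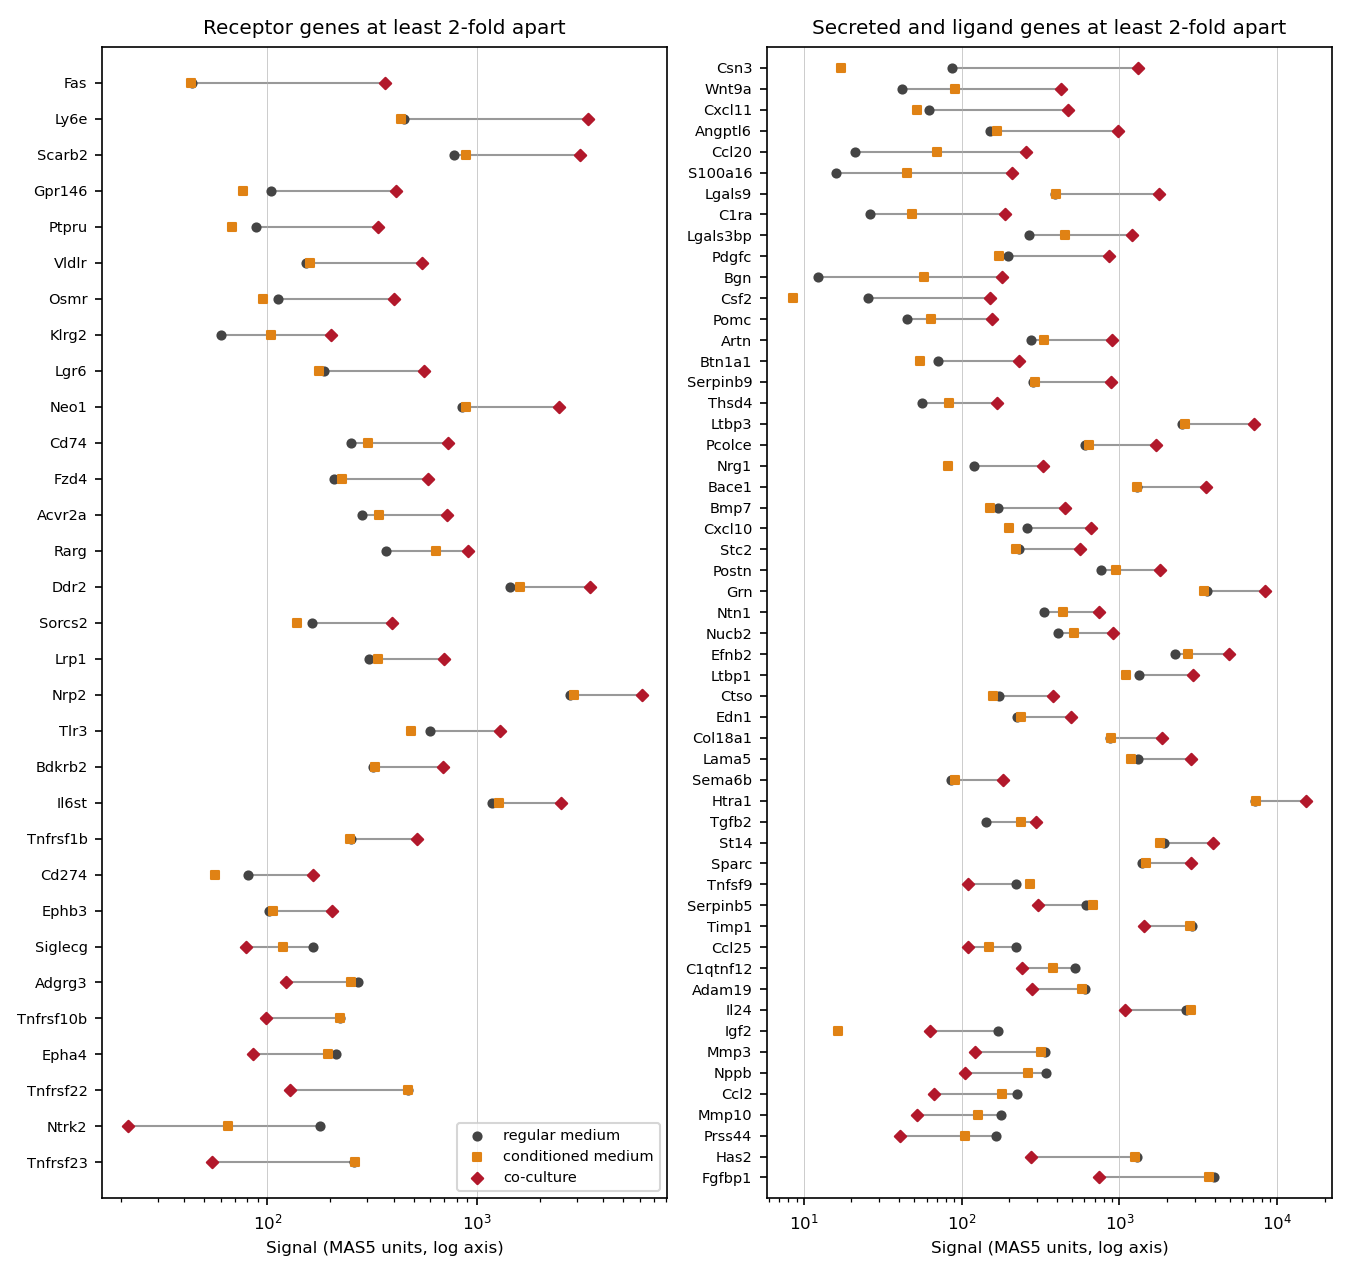
Signals (log axis) of the 31 receptor genes (left) and 54 secreted protein and ligand genes (right) at least 2-fold apart, on the regular-medium, conditioned-medium and co-culture arrays, 1 array each. Grey lines join regular medium and co-culture; Fas and Ly6e head the receptors, Csn3 and Wnt9a the secreted proteins, and the 7 and 15 lower genes sit at the bottom, ending in Tnfrsf23 and Fgfbp1.

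Secreted proteins and ligands gave 39 higher and 15 lower genes. Growth factor ligands had 5 of 24 higher and 2 lower. Pdgfc, a ligand of PDGF receptor alpha, gave 196.6, 172.6 and 854.3 and was 4.35-fold higher. Its receptor gene Pdgfra gave 101.3, 158.9 and 187.5. Artn, a GDNF-family ligand, gave 274, 333.5 and 900.7, and Nrg1, the ERBB ligand neuregulin, gave 120.0, 81.7 and 325.9. Fgfbp1, which frees FGFs from the matrix, was the farthest below regular medium of the secreted proteins listed, at 3962, 3704 and 740.0, 5.35-fold lower. Angptl6, an angiopoietin-like factor, was 6.42-fold higher at 151.9, 167.2 and 975. The conditioned-medium signals of Pdgfc, Angptl6 and Fgfbp1 all lay by those of regular medium.

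The TGF-beta and BMP list, ligands and binding proteins together, had 4 of 14 measured genes higher and 0 lower, with 3 of the 4 bright in regular medium. Ltbp3 and Ltbp1, which anchor latent TGF-beta to the matrix, gave 2475, 2602 and 7064 for Ltbp3 and 1326, 1107 and 2911 for Ltbp1, 2.85-fold and 2.20-fold higher. Bmp7 gave 170.7, 151.8 and 451.5, and Tgfb2 gave 143.2, 238 and 296. Tgfb1 did not differ by 2-fold, with a log2 difference of 0.02. On the receiving side Acvr2a, an activin receptor, gave 282, 340.0 and 716, but its other bright probe set gave a log2 difference of 0.38 and the median of the bright ones was 1.82-fold. Htra1, a secreted protease that acts on TGF-beta family members, gave 7259, 7284 and 15259. Peptide hormones had 4 of 10 higher and 1 lower. Edn1 (endothelin-1), Stc2 (stanniocalcin-2), Nucb2 and Pomc all met the rule. Edn1 gave 225.7, 237.7 and 491.1 and Stc2 gave 230.9, 220.7 and 558.9, while Nucb2 gave 410.8, 515.8 and 908.1 and the dim Pomc gave 45.2, 63.7 and 156.5. Nppb, the B-type natriuretic peptide, was lower at 344.4, 262.7 and 104.5. With 10 measured of 59, that share rests on few genes.

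Cytokines and chemokines were evenly divided, 4 higher and 4 lower of 25. The CXCR3 ligands Cxcl11 and Cxcl10, both interferon-induced, gave 62.1, 52.4 and 470.6 for Cxcl11 and 259.5, 198.4 and 657.1 for Cxcl10, 7.58-fold and 2.53-fold higher. Ccl20 and Csf2 (GM-CSF) were higher from regular-medium signals under the floor, at 21, 69.9 and 255.2 for Ccl20 and 25.4, 8.5 and 151.4 for Csf2. Il24, a cytokine of the IL-10 family and the brightest of the called cytokines, was 2.43-fold lower at 2655, 2857 and 1091. The monocyte attractant Ccl2 gave 225.4, 181.1 and 67. Ccl2 was thus lower while the CXCR3 ligands were higher. Serpinb9, an inhibitor of granzyme B that acts inside cells, gave 282.8, 290.5 and 888.6 and was 3.14-fold higher, while Serpinb5 (maspin) and the metalloproteinase inhibitor Timp1 were close to 2-fold lower, at 612.9, 680.0 and 305 for Serpinb5 and 2870.1, 2803 and 1428 for Timp1, and missed the rule when 16 was added to each signal in place of the floor.

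Matrix genes had 6 of 44 higher and 1 lower. Pcolce, which helps cut procollagen, gave 608.3, 641.7 and 1706, and Postn (periostin) gave 765.6, 949.5 and 1803. Col18a1, a basement membrane collagen, gave 870.1, 882.5 and 1864, Lama5 gave 1319.6, 1175 and 2821 and Sparc gave 1390.2, 1472 and 2832. For Sparc the median of the bright probe sets was 1.67-fold. Bgn (biglycan) was at least 4.28-fold higher at 12.3, 57.8 and 181.5. Postn and Bgn are on the MSC and fibroblast marker list, which had 9 of 12 measured members above regular medium and a median log2 difference of 0.49. Without Vim its summed signal was 22166 in regular medium and 25704 in co-culture, and with Vim it was 50068 and 42362. On that list Col1a1, Lum, Dcn and Thy1 lay at or below 43.8 in co-culture. Of these, Thy1 read lower than in regular medium, while Col1a1, Lum and Dcn read higher. Lum and Dcn read higher in conditioned medium too, and Col1a1 did not. Col5a2 gave 2.2, 32 and 89.8. The part of MSC RNA in the matrix genes, Ddr2 and Osmr was not tested. Has2, which makes hyaluronan, was 4.69-fold lower at 1299, 1261 and 277.1. The metalloproteinase genes Mmp3 and Mmp10 were lower too, at 335.9, 317.7 and 120.8 for Mmp3 and 177.1, 126.5 and 52.3 for Mmp10, among the 4 lower and 3 higher of 63 proteases. Bace1, a membrane protease best known for cutting the amyloid precursor, gave 1300.4, 1289 and 3515, and other bright probe sets kept its median under 2-fold. St14 (matriptase), an epithelial surface protease, gave 1911, 1795 and 3902 and missed the rule when the arrays were scaled to their 75th percentiles.

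Milk and acute-phase proteins closed the secreted class. Csn3, kappa-casein, gave 87.1, 17.2 and 1319 and was 15.1-fold higher, the largest difference of any secreted protein listed. Btn1a1, a butyrophilin of the milk fat globule, gave 70.9, 54.3 and 230.5; it was picked after its values were seen. Of the 31 complement, acute-phase, lipocalin, S100 and mucin genes, 6 were higher and 1 lower, and most of these were dim in regular medium. Lgals3bp, a secreted scavenger-receptor protein, gave 268.8, 451.2 and 1198, with conditioned medium between, C1ra, a complement protease, gave 26.2, 48.8 and 189, and S100a16 gave 15.9, 45 and 209.8.

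Outside these classes, ubiquitin ligases and proteases had 24 of 295 measured genes higher and 5 lower, led by interferon-linked members. Usp18, which removes ISG15, gave 55.1, 70.2 and 3248 and was 58.9-fold higher. TRIM genes were the largest single family among them. Trim30a gave 42.7, 83.4 and 366.2, Trim56 gave 457.9, 398 and 2185, Trim14 gave 237.2, 227.6 and 800.2 and Trim25, which activates the RNA sensor RIG-I, gave 2066, 2046 and 4572; the last 3 were chosen after their values were seen. Herc6, the mouse ligase for ISG15, gave 158.3, 234.8 and 772.3, with the median of its bright probe sets at 2.73-fold. Rnf145, a ligase that responds to sterols, was 2.43-fold lower at 6001, 5896 and 2471.

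Host genes of small nucleolar RNAs did not move as a block. Of 20 measured long noncoding and host genes, 5 were higher and 3 lower. Snhg17 and Snhg12 gave 326.3, 437.4 and 1473 for Snhg17 and 1176, 1163 and 5219 for Snhg12, 4.51-fold and 4.44-fold higher. Snhg1 gave 9597, 9939.8 and 22459, the brightest called gene named here, and Gas5 gave 9645, 9578 and 18242, just short of 2-fold at a log2 difference of 0.92. Snhg3 was lower at 2727, 2742 and 1323, and Snhg4 and Snhg8 gave log2 differences of -0.87 and 0.00. Snhg16 met the rule at 870.9, 796.9 and 2577, although its other bright probe set gave -0.05. The probe sets of Snhg1 ranged from -0.44 to 1.65.

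Kinases and their regulators had 11 of 192 higher (5.73%), near the 5.81% of all measured genes. The list had 2 lower (1.04%), against 2.76% of all measured genes. Fyn, a Src-family kinase, gave 406.2, 466 and 1372 and was 3.38-fold higher, and Src gave 480.1, 458.8 and 1163. Aurkb and Plk1, kinases of mitosis, were lower at 2711, 2930.4 and 1131 for Aurkb and 3400.4, 3411 and 1254 for Plk1. Ttk, Bub1b and Vrk1, kinase genes outside the kinase list picked after their values were seen, were 2.57-fold, 2.08-fold and 2.15-fold lower. Mitotic motors lay lower with them, Kif11 at 1811, 1946 and 452.9 and Kif20a at 2452, 2390.2 and 934.3, the first with a median over its bright probe sets under 2-fold. Krt14, a basal keratin, was 2.77-fold lower at 1218, 1263 and 439.1. Cytoskeletal genes in all were even, 7 higher and 7 lower of 134, with the myosins Myh14 and Myo18a higher at 210.9, 205.5 and 809.7 for Myh14 and 814.5, 818.9 and 2356 for Myo18a. Acta2, the smooth muscle actin and a marker of the smooth muscle and pericyte list, gave 42.4, 157 and 278.3. It missed the rule when probe sets marked for possible cross-hybridisation were left out.

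Signalling enzymes and lipid enzymes added further large differences. Rgs16, which switches off G protein signals, gave 3908, 4027 and 570.0 and was 6.86-fold lower. Arhgef2, a microtubule-bound activator of RhoA, gave 1165, 1253 and 4059 and was 3.48-fold higher. Its other bright probe sets gave log2 differences of 0.48 and 1.12, and the median of the bright ones was 2.18-fold. Of 224 small GTPase genes and regulators, 11 were higher and 4 lower. Dusp16 and Dusp4, phosphatases of MAP kinases, were higher at 1245, 940.4 and 3411 for Dusp16 and 863.7, 877.4 and 1938 for Dusp4. Lpin1, a phosphatidate phosphatase, was 6.05-fold lower at 464.9, 398.6 and 76.8, and Gpat3, which adds the first acyl chain to glycerol phosphate, was higher at 232, 243.7 and 816.4. Glycerolipid enzymes thus went both ways. Several genes of sterol synthesis were lower. Idi1, Nsdhl, Fdft1 and Mvk gave log2 differences of -3.04, -2.38, -2.21 and -1.99. Hmgcs1, Mvd, Lss and Cyp51 gave -1.88, -1.81, -1.63 and -1.06. Mvk, Hmgcs1, Mvd, Lss and Cyp51 were picked after their values were seen, and other genes of the pathway are not listed here. Hsd17b7 and Rdh11, reductases of sterol and retinoid metabolism, were lower at 885.9, 857.8 and 268.4 for Hsd17b7 and 1579, 1672 and 698.2 for Rdh11, and Aldh1l2, of mitochondrial folate metabolism, was higher at 115.8, 115.2 and 522.1.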

How the data were processed

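Signals were used as deposited: linear intensity values made by the authors with MAS5 (per the submitters' processing notes). Its version and scaling target were not found in the labels. RNA was extracted with Trizol and biotin-labelled, per the labels' protocols. Of 45037 probe sets, 34945 had 1 gene symbol, 932 several and 9160 none in the platform annotation, and 34741 symbols were updated through gene IDs. For the 9010 genes with several probe sets, the one with the highest mean over the 3 arrays stood for the gene. The floor was the pooled 40th percentile and the signal rule the pooled 60th, both over 3 arrays. A group of 1 array allows no test, and precision is limited by that number.

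The members, the 55 subgroups (6355 genes, by symbol) and the marker lists were chosen with earlier results of these data known. Symbol patterns of the subgroups were corrected after values were seen, which took a few genes out of wrong subgroups, and a gene counts once, in the first subgroup that lists it. The naming rule took the 12 largest differences in each direction, 4 more in each direction at the floor, and up to 4 of each subgroup in each direction. It gave 245 genes, and not all of them appear in the text. Other genes were chosen after their values were seen: those said so in the text, and Herc6, Relb, Irf2bp2, Irf2bpl, Klf4, Klf5, Grn, Lama5, Sparc, Lgals3bp, Dusp4, Src, Gas5, Pdgfra and non-called genes set beside a member. Motif letters were written by hand and searched in RefSeq promoters (GRCm38.p6). Scripts ran under Python 3.11.15 with pandas 2.3.3, NumPy 2.4.6 and Matplotlib 3.10.9, and were tested on simulated data.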

Additional observations from a re-analysis of the deposited data

Results flagged for a closer look

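Of 10092 probe sets without a single gene symbol, which entered no class, 2232 were bright. By the same rule 81 of these were higher in co-culture (3.63%) and 123 lower (5.51%), against 5.81% and 2.76% of measured genes. The units differ, since these probe sets were counted singly and each measured gene was counted by its brightest probe set. Lower calls thus outnumbered higher ones here, unlike among the measured genes. The farthest above regular medium, 1423555_a_at, had a co-culture signal of 2962 against 37.8 in regular medium and 25.7 in conditioned medium, at least 69.9-fold higher.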

How the results depend on the processing

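With 12 alternatives, the number of higher genes stayed within 1.5 times of 546 except for 303 when the brighter signal had to reach the pooled 80th percentile (703.6), 1586 at 1.5-fold and 164 at 3-fold. The number of lower genes, 259 in the main analysis, was 429 without a signal rule, 132 with the 80th percentile, 926 at 1.5-fold and 58 at 3-fold. Higher genes made up 67.8% of calls in the main analysis and 61.0% to 73.9% over the alternatives. Higher bZIP factors numbered 3 at 3-fold and up to 17 at other settings. Of the 245 genes that the naming rule gave, 94 met the 2-fold rule under all 10 alternatives that kept 2-fold. The other 151 missed it under at least 1, most often the 80th percentile. With the median of bright probe sets, Dusp3 and Bdkrb2 turned to log2 differences of -0.27 and -0.31, and Adcy5 turned to 0.35 without probe sets marked for cross-hybridisation; the cause was not tested. No paired analysis was possible because each group has 1 array, and for the same reason no replicate could be left out.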

Other observations

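Read by chromosome, the higher genes were spread over all of those listed, with the lowest share on chromosome X, where 5 of 262 measured genes were higher (1.91%) and 7 were lower (2.67%). The autosomal shares of higher genes ran from 4.23% to 7.99%. Several neighbouring genes were higher together. Neighbours here are measured genes in order of their starts. Unmeasured genes between them were passed over, and no limit was set on distance. On chromosome 17 the run H2-DMa, Psmb9, Tap1, Psmb8 and Tap2, of antigen processing, held 5 genes, on chromosome 3 the guanylate-binding proteins Gbp7, Gbp3, Gbp2b and Gbp2 held 4, and on chromosome 5 Oas2, Oas3, Oas1b and Oas1a held 4. Parp14, Dtx3l and Parp9 formed such a run on chromosome 16, and Trim21, Trim12c and Trim30a on chromosome 7. Probe sets of such related genes may share sequence, and this was not tested.

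Of 116 measured long noncoding RNA genes, 16 were higher (13.8%) and 8 lower (6.90%), against 5.70% and 2.69% of 9220 protein-coding genes.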
